A study of Mus musculus with 12 samples.

Results

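Histone genes were followed in the abdominal fat of diabetic mice. They were all probe sets whose gene symbol belongs to the clustered histone genes (H2ac, H2bc, H3c and H4c symbols) or to the linker histones (H1f symbols), which gave 38 of 23185 named probe sets. There were 8 for linker histone H1, 9 for H2A, 11 for H2B, 7 for H3 and 3 for H4. Of these, 29 lie on mouse chromosome 13, 6 on chromosome 3, 2 on chromosome 6 and 1 on chromosome 15. The reference gene table holds 70 symbols of this kind, and the others were not analysed here.

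The animals were BKS.Cg-Dock7m +/+ Leprdb/J mice, which lack a working leptin receptor and become obese and diabetic, and all were 12 weeks old. They were injected with adenovirus carrying short hairpin RNAs (shRNAs) and killed 1 week afterwards. The dose was 4e9 plaque-forming units in every animal. In controls all of it was control shRNA virus. In the LCN13 group 2e9 of it was LCN13 shRNA virus, in the TSC22D4 group 2e9 was TSC22D4 shRNA virus, and in both groups control virus made up the rest. The combined group (TSC22D4+LCN13) was given 2e9 of each of these viruses and none of the control virus. Each group held 7 animals, and 3 of them, chosen as representative by the submitters, were put on arrays, 12 arrays in all. Each shRNA group therefore differed from control both in the virus it gained and in the control virus it lost, and these cannot be told apart. The comparisons concern shRNAs directed at TSC22D4, a transcriptional regulator, and LCN13, a secreted lipocalin, in the fat tissue of diabetic mice.

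Histones are the proteins around which DNA is wrapped. H2A, H2B, H3 and H4 form the core of the nucleosome, and H1 binds the DNA between nucleosomes. Most histone genes sit in clusters, are read mainly while DNA is copied, and give mRNAs that end in a stem-loop in place of a poly(A) tail. Some histone genes also give polyadenylated mRNA in cells that have stopped dividing, and linker histones such as H1f10 are made outside DNA replication as well. The coding regions of genes of a class are nearly identical, so probes of one gene can take up RNA of another, and single members of the H2A, H2B and H3 families are uncertain for that reason.

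The members on which the results turned were H3c14 and H3c15. They follow each other among the members on chromosome 3 and encode the H3.2 form of histone H3. The 200 bases before the annotated start of each gene are shown because they show how alike the copies are there. They are RefSeq sequences of GRCm38.p6, written 5′ to 3′ on the gene's strand. Lower case marks a run of 231 identical bases that the windows share (it begins further upstream than the stretch shown), and capitals mark the bases after the run ends.
H3c14 (chr3:96246485-96246684, plus strand): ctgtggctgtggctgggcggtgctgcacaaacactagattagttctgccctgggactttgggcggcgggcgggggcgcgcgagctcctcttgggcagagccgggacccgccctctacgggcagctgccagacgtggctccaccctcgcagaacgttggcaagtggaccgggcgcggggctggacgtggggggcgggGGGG
H3c15 (chr3:96239128-96239327, minus strand): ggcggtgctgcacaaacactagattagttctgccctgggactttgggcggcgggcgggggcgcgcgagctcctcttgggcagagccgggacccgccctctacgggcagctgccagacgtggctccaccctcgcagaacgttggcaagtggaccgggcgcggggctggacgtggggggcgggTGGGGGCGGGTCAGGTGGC

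H2ac20 and H2ac21, which encode H2A and lie on the same chromosome with H2bc21 between them and H3c15, are shown for contrast. Here the capitals mark matches, on either strand, to the TATA box (TATAAA), the CCAAT box (CCAAT) and the octamer (ATGCAAAT), which are common in histone promoters.
H2ac20 (chr3:96220881-96221080, minus strand): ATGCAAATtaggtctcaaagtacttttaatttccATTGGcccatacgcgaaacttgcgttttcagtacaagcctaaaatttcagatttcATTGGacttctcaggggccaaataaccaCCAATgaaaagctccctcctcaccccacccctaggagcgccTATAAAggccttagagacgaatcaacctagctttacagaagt
H2ac21 (chr3:96219685-96219884, plus strand): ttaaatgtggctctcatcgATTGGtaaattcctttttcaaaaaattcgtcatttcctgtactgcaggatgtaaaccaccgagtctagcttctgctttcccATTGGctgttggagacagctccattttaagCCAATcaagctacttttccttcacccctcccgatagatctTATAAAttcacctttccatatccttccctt
The longest run shared by the 300-base windows of H2ac20 and H2ac21 was 14 bases. Windows of 300 bases (250 before the start and 50 after) were at hand for 34 of the 38 genes. Of these 34, the CCAAT box was found in 29 (85.3%), against 37.4% of 32851 RefSeq windows of the same length. The TATA box was found in 20 (58.8%), against 13.6% of all windows. The octamer was found in 10 (29.4%), 5 of them H2A and 5 of them H2B genes, against 1.74% of all windows. Some windows overlap on opposite strands. Those of H2ac1 and H2bc1 hold the same octamer, as do those of H2ac8 and H2bc8, so these counts are not independent. The stretches printed for H3c14 and H3c15 held none of the 3 motifs, and a CCAAT box lay elsewhere in the 300-base window of both. These matches describe letters in the sequence and nothing more.

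Values are log2 levels per probe set and array, so a difference of 1 is a doubling, and a level can be compared between arrays but not between genes. The probe set of Tsc22d4 lay between 7.56 and 7.88 on the 12 arrays and did not pass between the 6 arrays with TSC22D4 shRNA and the 6 without (difference -0.03, limma adjusted p = 0.835), and that of Obp2a, the current symbol of Lcn13, lay between 5.71 and 5.79, near the lowest value of the table, 5.62. Tsc22d4 read above 67.6% of all named probe sets and was not clearly lowered. Neither probe set therefore shows a lowered target or checks the labels in this tissue. The adipocyte genes Adipoq, Lep and Plin1 were high throughout, with Adipoq between 12.2 and 12.4, and the mean deviation of 12 adipocyte markers from their 12-array means stayed between -0.0845 and 0.067. LCN13 replicates 5 and 6 stood apart. Their 15 mesothelial markers lay 0.494 and 0.491 above the 12-array mean on average, against a highest value of 0.0445 elsewhere, so each call among the histone genes is also given without them. In whole tissue, fewer cells of a type and less RNA per cell cannot be told apart.

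Of the 38 histone probe sets, 18 had a mean above the median of all probe sets (6.36) and 20 lay at or below it, where differences are compressed. Among the dim ones were 5 genes known from germ cells, H1f6, H1f7, H1f8, H2ac1 and H2bc1. The heat map of all members shows that most of them moved little and that H3c14 and H3c15 changed colour between the first 6 and the last 6 arrays.

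**Figure D1:**
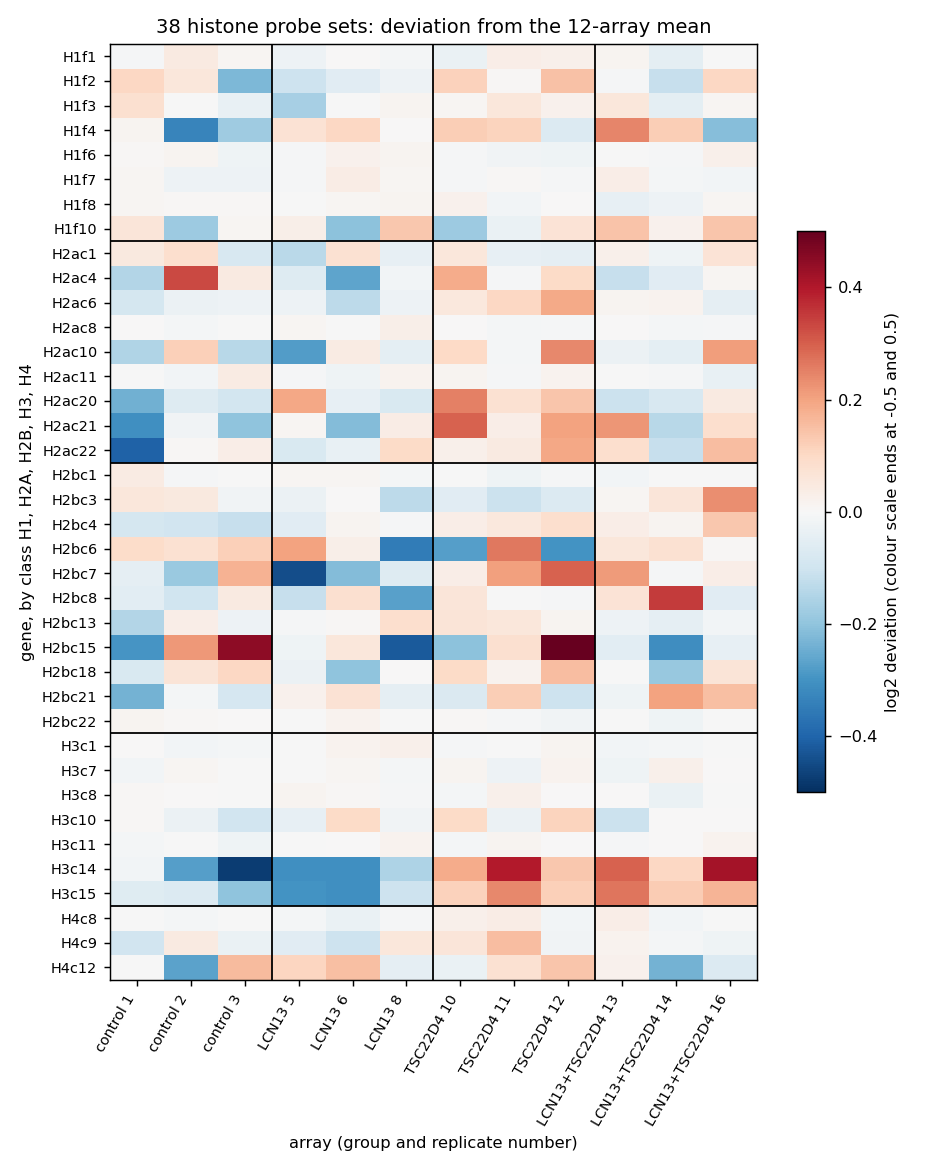
Deviation of each of the 38 histone probe sets (vertical axis, by class) from its mean over the 12 arrays (horizontal axis, by group and replicate number), in log2 units, with the colour scale ending at -0.5 and 0.5. H3c14 and H3c15 were below their means on all 6 control and LCN13 arrays and above them on all 6 arrays with TSC22D4 shRNA.

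In the TSC22D4 group, 6 histone genes lay above control on every array, and none of the 38 passed the test. The 6 were H3c14, H3c15, H2bc4, H2ac6, H2ac20 and H2ac21, and 4 of them lie on chromosome 3. Groups of 3 and 3 arrays were separated in the higher direction for 8.27% of all probe sets, against 15.8% (6 of 38) here, and in the lower direction for 8.38%, against 2.63% (1 of 38, H2bc3). With limma and Benjamini-Hochberg adjustment over all 23185 probe sets, 0 of 38 histone genes passed an adjusted p of 0.05, against 1.17% of all probe sets. At an unadjusted p under 0.05 there were 6 (15.8%), against 11.8% of all. The median difference of the 38 was 0.02 with 28 above 0, and that of all probe sets was -0.0022. Markers of other cells were also above control on every TSC22D4 array. The mean deviation of 12 neutrophil genes was 0.0468 to 0.22 against -0.0321 to 0.00354, and that of 13 B and plasma cell genes was -0.0463 to 0.342 against -0.134 to -0.0665, and their part was not tested.

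H3c14 read 10.92, 10.66 and 10.46 in the controls, 10.63, 10.63 and 10.78 with LCN13 shRNA, 11.12, 11.33 and 11.07 with TSC22D4 shRNA, and 11.23, 11.04 and 11.35 with both. Every array that received TSC22D4 shRNA was above every array that did not. Against control, H3c14 was 0.49 higher with TSC22D4 shRNA (SE 0.12, limma adjusted p = 0.115) and 0.53 higher with both shRNAs (SE 0.12, adjusted p = 0.0851), neither of which passed. These differences share the control arrays.

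H3c15 read 6.51, 6.51 and 6.37 in the controls, 6.28, 6.27 and 6.47 with LCN13 shRNA, 6.69, 6.82 and 6.70 with TSC22D4 shRNA, and 6.84, 6.71 and 6.75 with both. The 6 arrays with TSC22D4 shRNA again lay above the 6 without. H3c15 was 0.27 above control with TSC22D4 shRNA (SE 0.066, limma adjusted p = 0.112) and 0.30 above it with both (SE 0.066, adjusted p = 0.0724). Coding regions of a class are nearly identical, so the probe sets of H3c14 and H3c15 may read the same RNA. Probe sequences were not compared, and the pair is not counted as independent evidence.

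**Figure D2:**
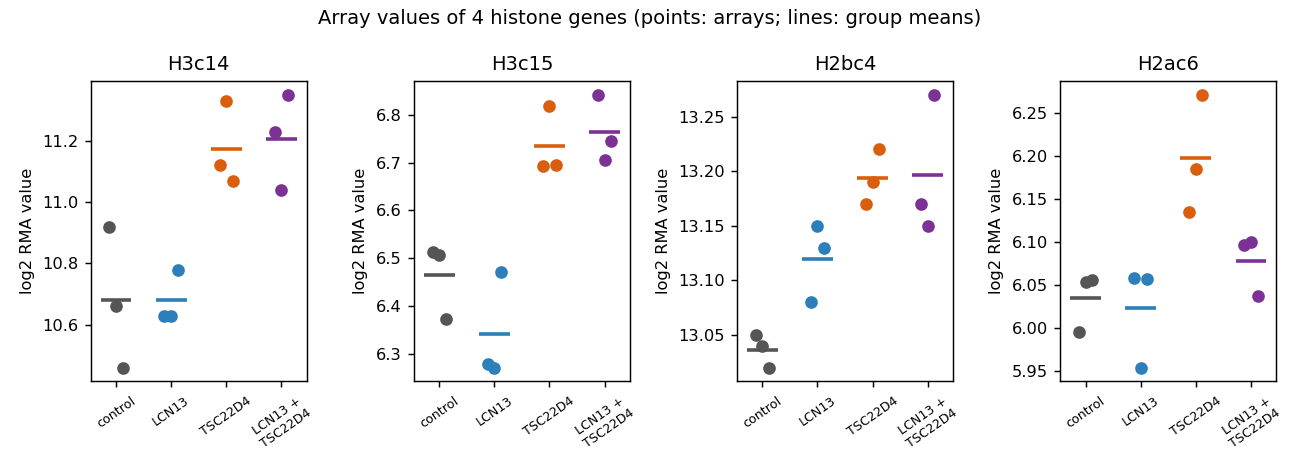
Log2 value (vertical axis) on each array (points) of H3c14, H3c15, H2bc4 and H2ac6 in the 4 groups (horizontal axis), with lines at the group means and a separate vertical scale for each gene, none of which starts at 0. H3c14 ran from 10.46 to 10.92 without TSC22D4 shRNA and from 11.04 to 11.35 with it.

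The arrays of the other H3 genes stayed almost level. H3c1, H3c8 and H3c11, which encode the H3.1 form, and H3c7, which like H3c14 and H3c15 encodes H3.2, varied by at most 0.0596 over the 12 arrays and lay near the bottom of the scale. H3c10, also an H3.1 gene, ran from 6.02 to 6.23, and its difference between TSC22D4 shRNA and control was 0.10 (limma adjusted p = 0.533).

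In the combined group, H2bc4, H3c14 and H3c15 lay above control on every array (7.89% of the 38, against 7.72% of all probe sets), and H2bc6 and H2bc22, both H2B genes, lay below it (5.26%, against 7.22% of all). With limma, 0 of 38 passed against control (1.34% of all probe sets passed), and 4 had an unadjusted p under 0.05 (10.5%, against 11% of all). The fourth, H2bc21, an H2B gene next to H3c15 among the members on chromosome 3, was 0.22 above control (SE 0.081, adjusted p = 0.329). The shares of histone genes separated from control were thus near the background in the higher direction and under it in the lower. The median difference of the 38 was 0.01, with 24 above 0.

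With LCN13 shRNA alone the histone genes lay near control. Of the 38, 0 passed in limma (1.44% of all did), and 1, H2bc4, had an unadjusted p under 0.05 (2.63%, against 12.6% of all). The median difference was -0.000451 with 18 above 0. The largest differences were 0.22 for H1f4, a somatic linker histone (SE 0.12, adjusted p = 0.498), and -0.25 for H2bc15, an H2B gene whose arrays were widely spread (8.00 to 8.96).

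H3c15 was the single histone gene that passed between the TSC22D4 and LCN13 groups. It was 0.40 higher with TSC22D4 shRNA (SE 0.066, limma adjusted p = 0.038), so 1 of 38 passed, and it was higher; 1.03% of all probe sets passed and 0.457% were higher. The call was lost without LCN13 replicate 5 or 6, any of the 3 TSC22D4 arrays or combined replicate 13. Its adjusted p lay between 0.0124 and 0.13 over the 12 fits that left out 1 array. Calls over all probe sets fell as well, from 239 with 12 arrays to 2 or 4 without LCN13 replicate 5 or 6. They fell to 4, 6 and 8 without TSC22D4 replicate 10, 11 or 12, and to 73 without combined replicate 13. Without both LCN13 replicates 5 and 6, which leaves 1 LCN13 array, the difference of H3c15 was 0.26 and the call ended. At an unadjusted p under 0.05 there were 4 of 38 (10.5%, against 17.7% of all): H3c15, H2ac6, H3c14 and H2bc7. The arrays of 8 histone genes (21.1%) were separated in the higher direction, against 10.1% of all probe sets. Other gene lists divided these groups too. The mean deviation of 29 cell cycle genes was -0.102 to -0.0701 with LCN13 shRNA and -0.0125 to 0.184 with TSC22D4 shRNA. The mean deviation of 17 T and NK cell genes was -0.165 to -0.0582 with LCN13 shRNA and 0.0342 to 0.154 with TSC22D4 shRNA, and that of 12 neutrophil genes was -0.117 to -0.0688 and 0.0468 to 0.22. Their part in the H3c15 difference was not tested.

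A moderated F test over the 4 groups also passed H3c15 alone (limma adjusted p = 0.0234), 1 of 38 against 1.61% of all probe sets. At an unadjusted p under 0.05 there were 7 (18.4%, against 16.1% of all): H3c15, H3c14, H2bc4, H2ac6, H2ac20, H2bc7 and H2bc3. Without LCN13 replicates 5 and 6 the adjusted p of H3c15 was 0.122. Leaving out LCN13 replicate 5, LCN13 replicate 6, TSC22D4 replicate 10 or combined replicate 13 alone also ended the call.

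Because the values of H3c14 and H3c15 divided by TSC22D4 shRNA, the 6 arrays with it were then set against the 6 without. This comparison was added after the array values had been seen, so its p-values describe a pattern already noticed and are too small as evidence for it. H3c15 was 0.35 higher (SE 0.046, 1.27-fold, limma adjusted p = 0.00851), H3c14 was 0.51 higher (SE 0.085, 1.42-fold, adjusted p = 0.025) and H2bc4 was 0.12 higher (SE 0.023, adjusted p = 0.0456). These 3 of 38 passed and all were higher; 1.39% of all probe sets passed and 0.561% were higher. The arrays of H3c14 and H3c15 did not overlap (5.26% of the 38), against 0.643% of all probe sets in the higher direction. The split was made because these genes divided that way, so their share is no evidence for it. Their probe sets may also read the same RNA. At an unadjusted p under 0.05 there were 6 (15.8%, against 16.1% of all), so the histone genes did not exceed the background at that threshold.

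Of the 6-against-6 calls, those of H3c14 and H2bc4 ended in some fits that left out 1 array. Calls over all probe sets fell in such fits too, from 323 with 12 arrays to 132 without LCN13 replicate 5 and 264 without control replicate 2. H3c15 passed in 12 of 12 fits that left out 1 array (adjusted p from 0.00263 to 0.0304). H3c14 passed in 5 of 12 and was lost without control replicate 2, LCN13 replicate 5 or 6, TSC22D4 replicate 10 or 11, or combined replicate 13 or 16 (adjusted p up to 0.074). H2bc4 passed in 3 of 12 (adjusted p up to 0.114). Without both LCN13 replicates 5 and 6, which leaves 1 LCN13 array, the differences were 0.28 for H3c15, 0.46 for H3c14 and 0.11 for H2bc4. The sizes thus stayed near those over 12 arrays while the calls ended with fewer arrays.

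**Figure D3:**
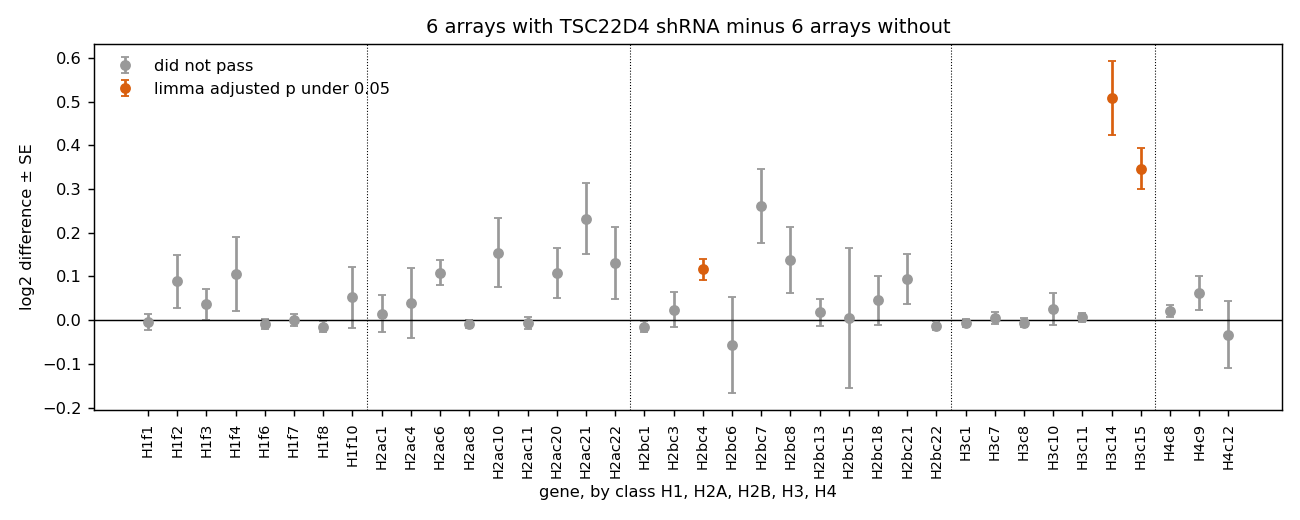
Mean log2 difference between the 6 arrays with TSC22D4 shRNA and the 6 without (vertical axis, points, bars ± SE from limma) for each of the 38 histone genes (horizontal axis, by class). H3c14 at 0.51 and H3c15 at 0.35 lay farthest above 0, and the 3 genes that passed, with H2bc4 at 0.12, are in orange.

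Markers of red blood cells differed between the groups. The mean deviation of 7 erythrocyte genes ran from 0.481 to 0.804 on the combined arrays and from -0.103 to 0.276 with TSC22D4 shRNA, against -0.806 to 0.166 in the controls and -0.666 to 0.347 with LCN13 shRNA. Its part in the H3c14 and H3c15 differences was not tested.

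H2bc4, an H2B gene on chromosome 13, was the member set apart by the control group. It read 13.05, 13.04 and 13.02 in the controls, 13.08, 13.15 and 13.13 with LCN13 shRNA, 13.17, 13.19 and 13.22 with TSC22D4 shRNA, and 13.17, 13.15 and 13.27 with both. All 9 arrays with a gene-directed shRNA were above the 3 controls, as was so for 1.1% of all probe sets. Against control, the mean of the 3 shRNA groups was 0.13 higher (SE 0.026, limma adjusted p = 0.0426). It was the 1 histone gene of 38 to pass here, where 1.66% of all probe sets passed and 0.384% were higher. It passed in 3 of 12 fits that left out 1 array (adjusted p from 0.022 to 0.16), and without LCN13 replicates 5 and 6 the adjusted p was 0.0834. At an unadjusted p under 0.05 there were 6 (15.8%, against 11.5% of all).

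Interferon-stimulated genes also set the controls apart from the other 9 arrays, in the opposite direction to H2bc4. The mean deviation of 26 such genes was 1.35 to 1.67 in the controls and between -0.709 and -0.298 on the other 9 arrays. Its part in the H2bc4 difference was not tested.

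The linker histones gave no call. H1f2 and H1f4, both somatic linker histones, read well above the bottom of the scale. H1f4 read 9.29, 8.94 and 9.10 in the controls and between 9.06 and 9.52 on the 9 other arrays, so the groups overlapped. The mean of the 3 shRNA groups was 0.22 above control (SE 0.097, limma adjusted p = 0.434). H1f2 ran from 10.90 to 11.27, and its 6-against-6 difference was 0.09 (SE 0.06, adjusted p = 0.526). H1f8, an oocyte linker histone, stayed between 5.88 and 5.94.

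Among the H2A genes, 7 of 9 were above 0 with TSC22D4 shRNA against control (median 0.16) and 4 of 9 with LCN13 shRNA (median -0.01), and none passed in any comparison. H2ac6 read 6.00, 6.05 and 6.06 in the controls, 6.06, 5.95 and 6.06 with LCN13 shRNA, 6.14, 6.18 and 6.27 with TSC22D4 shRNA, and 6.10, 6.10 and 6.04 with both. The TSC22D4 arrays were the 3 highest, and the combined arrays overlapped the arrays without TSC22D4 shRNA. The difference of the TSC22D4 group from control was 0.16 (SE 0.041, limma adjusted p = 0.124).

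H2ac20 and H2ac21, which lie in the same stretch of chromosome 3 as H3c15, averaged highest in the TSC22D4 group. H2ac21 averaged 6.35 ± 0.145 in the controls, 6.47 ± 0.14 with LCN13 shRNA, 6.70 ± 0.132 with TSC22D4 shRNA and 6.58 ± 0.181 with both (SD, n = 3). Its difference between TSC22D4 shRNA and control was 0.35 (SE 0.11, limma adjusted p = 0.237). H2ac20 averaged 6.37 ± 0.0954, 6.53 ± 0.147, 6.66 ± 0.0898 and 6.45 ± 0.0814 in the same order of groups. Its difference between TSC22D4 shRNA and control was 0.29 (SE 0.081, adjusted p = 0.172). H2ac22, read well above the bottom of the scale, ran from 10.71 to 11.15 in the controls alone and to 11.31 over all arrays.

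The H2B genes went separate ways. H2bc7 averaged 10.42 ± 0.184 in the controls, 10.20 ± 0.192 with LCN13 shRNA, 10.61 ± 0.128 with TSC22D4 shRNA and 10.52 ± 0.117 with both (SD, n = 3). Between the TSC22D4 and LCN13 groups it differed by 0.42 (SE 0.12, limma adjusted p = 0.125). H2bc3 averaged 6.60 ± 0.0421 in the controls, 6.49 ± 0.0275 with TSC22D4 shRNA and 6.67 ± 0.117 with both, and the interaction of the shRNAs was 0.26 (SE 0.08, adjusted p = 0.432). H2bc6 had values from 7.43 to 8.04, and its difference between the TSC22D4 and LCN13 groups turned sign when single arrays were left out.

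The 3 H4 genes gave no call. H4c12 ran from 9.65 to 10.07 with overlapping groups. H4c9 and H4c8 were dim, and the 6-against-6 difference of H4c9 was 0.06 (SE 0.038, limma adjusted p = 0.472).

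Adding the second shRNA to the first gave no call among the histone genes. Between the combined and TSC22D4 groups, 0 of 38 passed in limma (0% of all probe sets), with 3 at an unadjusted p under 0.05 (7.89%, against 6.91% of all): H2bc3, H2ac6 and H2ac20. Between the combined and LCN13 groups, 0 passed (0.00863% of all), with 5 at that threshold (13.2%, against 10.7% of all), and H3c15 was 0.42 higher (SE 0.066, adjusted p = 0.109). For the interaction, 0 passed (0.397% of all), with 3 at an unadjusted p under 0.05 (7.89%, against 7.08% of all): H2bc3, H2ac20 and H2bc13. For the 6 arrays with LCN13 shRNA against the 6 without, also added after the values had been seen, 0 passed (1.08% of all), with 1 at an unadjusted p under 0.05 (2.63%, against 13.7% of all), H2ac6.

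The position of the genes was not used to choose them. In order along chromosome 3 the members are H2ac21, H2ac20, H2bc21, H3c15, H3c14 and H2bc18. All 6 were above 0 between the arrays with and without TSC22D4 shRNA (median 0.17), against 19 of 29 on chromosome 13 (median 0.02). The 6 include H3c14 and H3c15, whose values prompted this comparison and which may read the same RNA, so their signs were known beforehand. This split was made after the values were seen, and the difference between the chromosomes was not tested. It also sets brighter against dimmer probe sets. Most members on chromosome 13 lay at or below the median level, where differences are compressed, but on chromosome 3 only H2bc18 did. Over all members above that level, those on chromosome 3 included, the median was 0.1065. H2bc18 at the end of the row differed by 0.05 (SE 0.056, limma adjusted p = 0.749) and H2bc21 by 0.09 (SE 0.057, adjusted p = 0.474).

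Averaged over all 38, the deviation from the 12-array mean lay between -0.0511 and -0.0153 in the controls, -0.0433 and -0.0339 with LCN13 shRNA, 0.0305 and 0.0607 with TSC22D4 shRNA, and -0.0129 and 0.0412 with both. Without H3c14 and H3c15 the other 36 lay between -0.0517 and -0.00665, -0.0297 and -0.0188, 0.0238 and 0.0568, and -0.02 and 0.0273 in the same order. For these 36 the TSC22D4 arrays lay above all control and LCN13 arrays, and the combined arrays overlapped the controls.

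**Figure D4:**
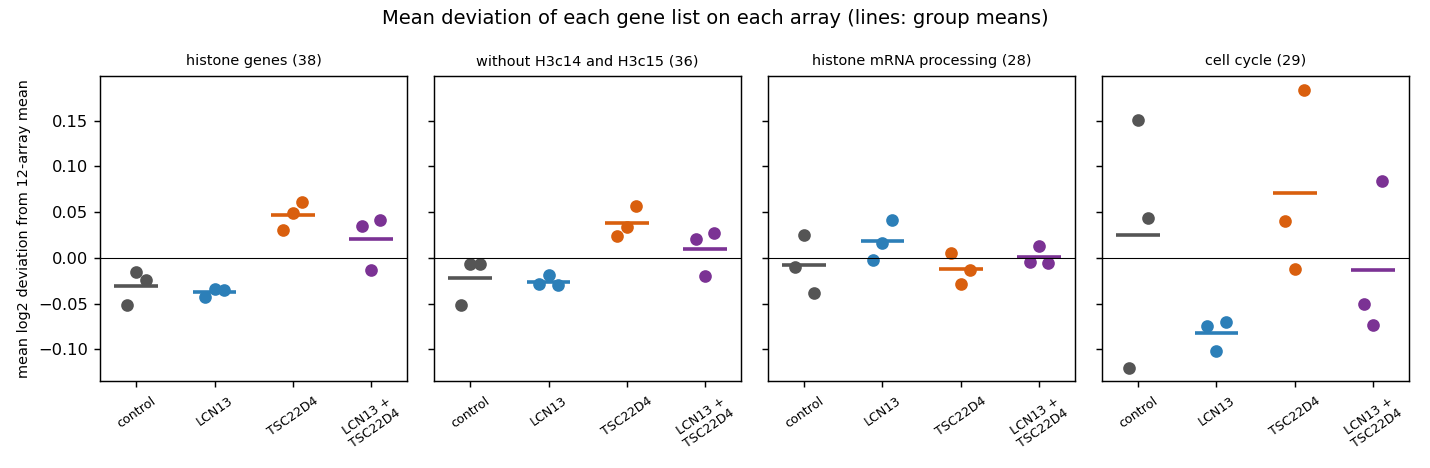
Mean log2 deviation from the 12-array mean (vertical axis) on each array (points) in the 4 groups (horizontal axis), with lines at the group means, for the 38 histone genes, the 36 without H3c14 and H3c15, 28 histone mRNA processing genes and 29 cell cycle genes. The TSC22D4 arrays lay between 0.0305 and 0.0607 for the 38 genes, while the cell cycle genes ran from -0.12 to 0.151 among the controls alone.

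Genes of DNA replication and cell division gave no call. Of 29 cell cycle genes, 0 passed in any comparison with limma, and in the comparison of TSC22D4 shRNA with control 2 had an unadjusted p under 0.05 (6.9%, against 11.8% of all), 18 were above 0 and the median difference was 0.05. Between the TSC22D4 and LCN13 groups, where H3c15 passed, 8 of 29 did (27.6%, against 17.7% of all), 26 were above 0 and the median was 0.14. Between the 6 arrays with TSC22D4 shRNA and the 6 without, 4 did (13.8%, against 16.1% of all) and the median was 0.05. Bub1, a mitotic checkpoint kinase, differed by 0.41 between the TSC22D4 and LCN13 groups (SE 0.12, adjusted p = 0.129) and by 0.10 between TSC22D4 shRNA and control (SE 0.12, adjusted p = 0.828). Cdc6, which loads the replicative helicase, differed by 0.10 (SE 0.026, adjusted p = 0.105) and 0.06 (SE 0.026, adjusted p = 0.438) in the same order. The mean deviation of the list was lower on all 3 LCN13 arrays, -0.102 to -0.0701, than on the TSC22D4 arrays, -0.0125 to 0.184, and its part in the H3c15 difference was not tested.

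Of 13 variant histone genes outside the 38, 0 passed in any comparison with limma, and 3 had an unadjusted p under 0.05 between TSC22D4 shRNA and control (23.1%, against 11.8% of all). H2az1, which encodes the variant H2A.Z, was 0.42 above control with both shRNAs (SE 0.1, adjusted p = 0.0942). H2aj, an H2A variant gene, was 0.09 above control with TSC22D4 shRNA (SE 0.026, adjusted p = 0.203).

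Of 28 genes for the transcription and processing of histone mRNA, Npat and Snrpd3 passed in a comparison. Against control 1 of 28 passed in the combined group (1.34% of all probe sets did), 1 passed between the TSC22D4 and LCN13 groups (1.03% of all), and 2 passed in the 6-against-6 comparison of TSC22D4 shRNA (1.39% of all) and 0 of them without LCN13 replicates 5 and 6. Npat, the coactivator of replication-dependent histone genes, read 7.97, 8.09 and 8.11 in the controls, 8.07, 8.08 and 8.19 with LCN13 shRNA, 8.14, 8.22 and 8.15 with TSC22D4 shRNA, and 8.30, 8.32 and 8.35 with both. The combined arrays were the 3 highest. It was 0.27 above control there (SE 0.044, limma adjusted p = 0.0195), a call that ended without any 1 of the 3 combined arrays and held without LCN13 replicates 5 and 6 (adjusted p = 0.0293), and 0.11 above control with TSC22D4 shRNA (adjusted p = 0.354). Snrpd3, a ring protein of the spliceosomal and U7 particles, was 0.22 lower in the TSC22D4 than in the LCN13 group (difference -0.22, SE 0.03, adjusted p = 0.0281). That call ended without LCN13 replicate 5 or 6 or any of the 3 TSC22D4 arrays, and without both of those LCN13 arrays the difference was -0.19 (adjusted p = 0.429). Slbp, which binds the stem-loop of histone mRNAs, differed by -0.06 between TSC22D4 shRNA and control (SE 0.096, adjusted p = 0.891).

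Of 26 histone chaperone genes, Daxx, Hira and Rbbp7 passed in a comparison. Against control, 1 of 26 passed with TSC22D4 shRNA (1.17% of all probe sets did), 2 with LCN13 shRNA (1.44% of all) and 1 with both (1.34% of all), and 1 passed between the TSC22D4 and LCN13 groups (1.03% of all). Daxx, which with Atrx deposits the variant H3.3, read 10.22, 10.22 and 9.89 in the controls and between 9.05 and 9.54 on the other 9 arrays. It fell by 0.95 with TSC22D4 shRNA (difference -0.95, SE 0.12, limma adjusted p = 0.00517), by 0.73 with LCN13 shRNA (difference -0.73, adjusted p = 0.0201) and by 0.85 with both (difference -0.85, adjusted p = 0.00951), against the same 3 controls. The interferon-stimulated genes were higher in the controls on every array as well, and their part in the Daxx difference was not tested. Hira, another H3.3 chaperone, was 0.18 above control with LCN13 shRNA (SE 0.033, adjusted p = 0.0268). Rbbp7, a histone-binding subunit of several chromatin complexes, was lower in the TSC22D4 than in the LCN13 group (difference -0.26, SE 0.043, adjusted p = 0.038). Without LCN13 replicates 5 and 6 the calls of Hira (adjusted p = 0.236), Rbbp7 (adjusted p = 0.49) and Daxx with LCN13 shRNA (adjusted p = 0.133) ended, and those of Daxx with TSC22D4 shRNA (adjusted p = 0.0145) and with both (adjusted p = 0.0239) held. Leaving out 1 array, the Hira call was lost without control replicate 1 or 2 or any LCN13 array, the Rbbp7 call without LCN13 replicate 5 or 6, any TSC22D4 array or combined replicate 13, and the Daxx call with LCN13 shRNA without control replicate 1 or 2 or LCN13 replicate 5 or 8.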

How the data were processed

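Abdominal fat RNA of 12 mice in 4 groups of 3 was measured on Affymetrix arrays. The authors deposited 1 log2 value per probe set and array, made with RMA, which corrects background, normalizes arrays and summarizes probes, per the submitters' processing notes. Version, settings, definitions of probe sets and build of the genome were not given in the sources used here. Sorted columns differed by at most 0.00188, so changes shared by most genes had been removed. Of 25206 probe sets, 23185 had 1 gene symbol, 0 several and 2021 none. Symbols came from the array's platform annotation, and the GRCm38.p6 gene table was used for current names and gene order. All named probe sets were tested, with no filter on dim ones. The number of arrays limits the precision.

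limma 3.58.1 in R 4.3.3 was fitted over all 12 arrays with 1 mean per group (lmFit, contrasts.fit, eBayes, two-sided). Calls were made at a Benjamini-Hochberg adjusted p under 0.05 over the 23185 probe sets. There were 8 residual and 1.38 prior degrees of freedom, and the median residual SD was 0.0647. The comparisons were 6 between pairs of groups, the interaction (combined minus LCN13, less TSC22D4 minus control), the mean of the 3 shRNA groups against control, and an F test. A further 2 comparisons of 6 arrays with 6 were added after the values had been seen. On data simulated from these arrays, the fit called 86 of 100 genes changed by 0.5 between TSC22D4 and control, and 91 of 100 between 6 arrays and 6. The changed genes were drawn at random from all named probe sets, each with its own spread. H3c14 varied more than most, with group SDs from 0.0841 to 0.228, so these shares do not hold for it.

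The members and lists were chosen with earlier results of these data known. Named were the members that passed, the 3 of each class with the smallest F p, the 2 with the widest range, the largest difference each way in every comparison, and a few genes of each list (up to 4 that passed, otherwise the 2 with the smallest F p). Adipoq, Lep, Plin1, Slbp, H1f6, H1f7, H2ac1, H2bc1, H2bc13, H2bc18, H2bc22 and the remaining H3 genes were named outside that rule after their values were seen. H1f10, H2ac8 and H2bc8 were also named outside it, without their array values. Alternatives were array weights, fits on the groups compared alone, a trended robust variance, only probe sets above the median level, cyclic loess, all probe sets of the table, and leaving out each array or LCN13 replicates 5 and 6. Python 3.11.15 was used for tables and plots.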

Additional observations from a re-analysis of the deposited data

How the results depend on the processing

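Calls among the histone genes moved with the settings, and why they moved was not tested. No paired analysis was possible because the groups share no replicate numbers. With array weights, 2 histone genes passed for TSC22D4 against control (447 of all 23185 probe sets did) and 3 for the combined group against control (518 of all). For TSC22D4 against LCN13, 3 passed, while calls over all probe sets rose from 239 without weights to 1178. For the combined group against LCN13, 1 passed (14 of all), and in the F test 3 passed (935 of all). With a trended robust variance the counts were 1 for TSC22D4 against control (326 of all) and 1 for the combined group against control (299 of all). They were 0 for the mean of the 3 shRNA groups against control (387 of all) and 2 in the F test (426 of all). Among probe sets above the median level they were 1, 1, 0 and 2 in the same order (326, 326, 386 and 484 of all above that level). The medians over those members were 0.1355 for TSC22D4 against control, 0.1213 for the combined group against control and 0.1071 for TSC22D4 against LCN13. They were 0.08919 for the combined group against LCN13, 0.06916 for the mean of the 3 shRNA groups and 0.1065 for the 6-against-6 comparison of TSC22D4 shRNA. Fitted on the 2 groups alone, 0 passed for TSC22D4 against LCN13 (75 of all). With cyclic loess 0 passed for the mean of the 3 shRNA groups (377 of all). The mean of the 3 shRNA groups uses every array, so it had no fit on fewer groups.

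Leaving out 1 array at a time gave 0 to 1 calls for TSC22D4 against control, the combined group against control and TSC22D4 against LCN13. It also gave 0 to 1 for the combined group against LCN13 and the mean of the 3 shRNA groups. The F test gave 0 to 2, and the 6-against-6 comparison of TSC22D4 shRNA gave 1 to 3. Calls over all probe sets moved as well, for TSC22D4 against LCN13 from 239 with 12 arrays to 2 without LCN13 replicate 5. The median ran from 0.0182 to 0.04349 for TSC22D4 against control and from 0.005941 to 0.03866 for the combined group against LCN13. Leaving out LCN13 replicates 5 and 6, an alternative added after seeing the data, left 1 LCN13 array. The calls for TSC22D4 against LCN13, the mean of the 3 shRNA groups, the 6-against-6 comparison and the F test then ended. The median for the combined group against LCN13 was 0.002116. H2bc6, whose difference ran from -0.2469 to 0.0568 between TSC22D4 and LCN13 and from -0.1489 to 0.002961 in the 6-against-6 comparison when 1 array was left out, turned sign between TSC22D4 and LCN13 without LCN13 replicate 5 (0.0568), TSC22D4 replicate 10 (0.02165), TSC22D4 replicate 12 (0.03288) or LCN13 replicates 5 and 6 (0.2458), and in the 6-against-6 comparison without LCN13 replicate 5 (0.002961) or replicates 5 and 6 (0.09744).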
